A study of Mus musculus with 15 samples.

Results

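The step from the early innate lymphoid progenitor (EILP) to the innate lymphoid cell progenitor (ILCP) was read in 5 of the 15 bulk RNA-seq libraries of the series, 3 of EILP and 2 of ILCP, chosen by their labels. Both were sorted from the bone marrow of C57BL/6 mice as lineage-negative cells positive for Kit, 2B4, the integrin a4b7 and a Tcf7 reporter. EILP cells, Tcf7+ and Thy1-, had the genotype Tcf7EGFPnull/+, so 1 of their Tcf7 alleles was null. ILCP cells, Tcf7+, Thy1+ and IL-7Ra+, had the genotype Tcf7EGFP/+, with a reporter allele that the label does not call null, so stage and genotype cannot be told apart. EILP libraries 1 and 2 and ILCP library 1 are labelled batch 1, and EILP library 3 and ILCP library 2 batch 2. The labels give no age and do not say that libraries came from separate animals, so p-values measure only the spread between these libraries, which may be technical.

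Innate lymphoid cells (ILCs) are tissue-resident lymphocytes that answer cytokines without a rearranged antigen receptor. They arise in the bone marrow from lymphoid progenitors through stages that lose access to other blood lineages. The EILP is an early stage marked by TCF-1, the product of Tcf7, and the later ILCP gives rise to the helper-like subsets ILC1, ILC2 and ILC3.

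Values are log2 CPM (counts scaled to 1 total per library) as deposited, and depth is unknown. Each library has 1 lowest value that many genes share: 1470 to 2575 genes in the EILP libraries and 2124 and 2224 in the ILCP libraries. Folds are printed only for genes at that value in none of the 5 libraries. Pearson's r across genes, which are not independent replicates, was 0.720 to 0.793 between EILP libraries, 0.749 between ILCP libraries and 0.666 to 0.688 between the groups. In bulk RNA, fewer cells that express a gene and less RNA per cell cannot be told apart.

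Of 12572 genes tested with limma on the spread of all 15 libraries, 874 passed an adjusted p of 0.05 (6.95%). In ILCP 328 were higher (2.61%) and 546 lower (4.34%), against a median difference over all tested genes of -0.059 on the log2 scale. A positive difference was seen for 5982 of the tested genes (47.6%). All 3 EILP libraries were at the lowest value for 97 of the higher genes, and both ILCP libraries for 101 of the lower genes. The libraries of the groups did not overlap for 327 of the higher and 543 of the lower genes, and for 32.3% of all tested genes in either direction. The calls lean on the spread of the other 10 libraries. These are of all-lymphoid progenitors (ALP_WT), of specified and committed EILP fractions (sEILP_WT and cEILP_WT) and of Tcf7-null EILP (EILP_KO). In a fit of the 5 libraries alone with the batch as a term, 0 genes passed by limma and 1796 had an unadjusted p under 0.05. Within batch 1, with 1 ILCP library, the median difference over tested genes was 0.009. P-values there hold no spread between ILCP libraries and are not given for single genes. Within batch 2, with 1 library of each group, the median difference over tested genes was -0.132. Only ALP_WT has more than 1 library in that batch, so p-values there would measure its spread and are not given for single genes. Without ILCP library 1, 163 genes were higher and 602 lower, and without ILCP library 2, 174 and 597. In all 5 fits that each left out 1 library, 86 of the higher and 202 of the lower genes kept the call. A call that was lost in such a fit is given with the library left out and the highest adjusted p. A fit without ILCP library 1 or 2 keeps 1 ILCP library, so its p-values hold no spread between ILCP libraries.

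**Figure D1:**
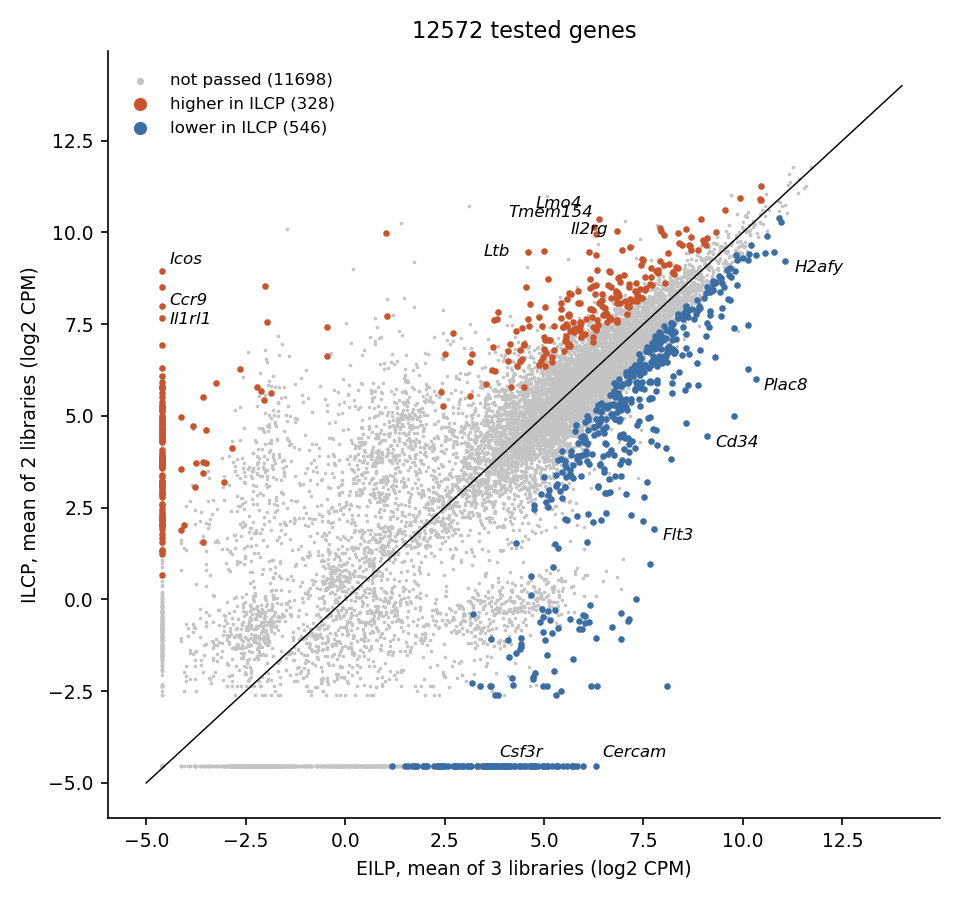
Mean log2 CPM of each tested gene in EILP (x axis, 3 libraries) against ILCP (y axis, 2 libraries), with genes past adjusted p 0.05 in orange (higher in ILCP) or blue (lower) and the line of equality in black. The 328 higher genes lie above the line and the 546 lower genes below it, and the column at the left and the row at the bottom hold genes listed at the lowest value throughout EILP or ILCP.

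The genes of the sort gate were read first. Kit, the stem cell factor receptor, was 8.43, 9.40 and 8.77 in EILP and 8.88 and 9.11 in ILCP (adjusted p = 0.923). Itgb7, the beta chain of a4b7, was 10.06, 10.43 and 9.76 in EILP and 9.95 and 10.09 in ILCP (adjusted p = 0.986). Tcf7, of which EILP carries 1 null allele, was 9.89, 10.81 and 11.14 in EILP and 9.89 and 10.17 in ILCP (adjusted p = 0.284). The groups overlapped for these 3 genes. Thy1, the antigen that separates the gates, was 2.46, 0.69 and 1.62 in EILP and 4.99 and 4.85 in ILCP, so both ILCP libraries lay above every EILP library. Its log2 difference of 3.37 (SE 1.83) did not pass (adjusted p = 0.31). Il7r, the other gene of the ILCP gate, was at the lowest value, 6.34 and 7.58 in EILP and 10.58 and 10.84 in ILCP (adjusted p = 0.0968). It passed without EILP library 1 (adjusted p = 0.00116), 2 (0.0485) or 3 (0.0447), with a log2 difference of 3.75 in the first case, against 7.34 over all 5 libraries. Itga4, the alpha chain of a4b7, was 9.36, 9.71 and 9.82 in EILP and 8.22 and 8.13 in ILCP, a 2.70-fold fall (adjusted p = 0.000722). Cd244, which encodes 2B4, was 6.68, 7.02 and 6.99 in EILP and 3.51 and 6.22 in ILCP (adjusted p = 0.041), and both ILCP libraries were below all EILP libraries. That call was lost without ILCP library 1, EILP library 1, EILP library 2 or EILP library 3 (adjusted p up to 0.399).

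The largest rises were of genes that EILP listed at the lowest value. Icos, a costimulatory receptor of T cells and ILC2s (chromosome 1, 60977927 to 61000320, in the GENCODE annotation of mm10), was at the lowest value throughout in EILP and at 9.13 and 8.75 in ILCP (adjusted p = 0.000208). Ccr9, a gut-homing chemokine receptor (chromosome 9, 123678439 to 123784330), was at 8.27 and 8.77 in ILCP (adjusted p = 0.000229), with EILP again at the lowest value throughout. Il1rl1, the IL-33 receptor of ILC2s (chromosome 1, 40429570 to 40465415), was at 8.06 and 7.93 in ILCP (adjusted p = 0.00388), with the same pattern in EILP. The genes Pxdc1, Camk4 (a calcium-dependent kinase), Ccr6, Tnfrsf25 (the receptor DR3), Fam20a, Lta, Tnik (a kinase) and Ptgir (the prostacyclin receptor) shared it. Icos was above the lowest value in every library of the other sorted populations. Its mean was 2.76 in ALP_WT, -0.11 in sEILP_WT, 1.15 in cEILP_WT and 2.19 in EILP_KO, all below ILCP. Lta and Tnfrsf25 were at the lowest value in every library of ALP_WT, sEILP_WT and EILP_KO. A lowest value in EILP thus does not show that a gene was absent from the EILP fractions. Skap1, an adaptor of integrin activation in T cells, was at the lowest value, the lowest value and 3.36 in EILP and 8.38 and 8.70 in ILCP (adjusted p = 0.0382). Ptgir (adjusted p = 0.0447) lost its call without any 1 of the 5 libraries (adjusted p up to 0.159), Skap1 without ILCP library 1, ILCP library 2, EILP library 1 or EILP library 2 (adjusted p up to 0.156) and Ccr6 without ILCP library 1 or ILCP library 2 (adjusted p up to 0.0623).

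Of the genes above 0 in all 5 libraries, Tmem154, which encodes a membrane protein (chromosome 3, 84666192 to 84704575), had the smallest p among the rises. It was 5.0, 5.08 and 4.91 in EILP and 9.39 and 9.58 in ILCP, a 23.6-fold rise (log2 difference 4.56, SE 0.46, adjusted p = 0.00013). Lmo4, a LIM-only transcriptional cofactor, was 6.12, 5.93 and 7.11 against 10.13 and 10.58, a 15.4-fold rise. Gclc, the catalytic subunit of the enzyme that limits glutathione synthesis, was 6.24, 6.58 and 7.68 against 9.89 and 10.19, an 8.61-fold rise. Both ILCP libraries stood above every EILP library for these 3 genes. Cd82, a tetraspanin, rose 12.2-fold and Serpinb1a, an inhibitor of granule proteases, 4.88-fold. Shisa5 rose 4.59-fold, Slc9a9, a sodium-proton exchanger, 3.76-fold, and Tmem176b 3.62-fold. All 8 genes kept their calls in each fit that left out 1 of the 5 libraries. In the other sorted populations, mean Tmem154 was 4.97 in ALP_WT, 5.23 in sEILP_WT, 5.71 in cEILP_WT and 4.61 in EILP_KO, all below ILCP.

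Cytokine receptors moved in both directions. Of 31 tested receptors of lymphoid cells, 10 were higher and 5 lower in ILCP, and 16 did not pass. The 27 of them with neither group wholly at the lowest value had a median log2 difference of 0.69, against -0.005 for the 11020 such genes in all. The higher count was 6 without ILCP library 1 and 6 without ILCP library 2. The lower count was 3 without ILCP library 1 or EILP library 1 or 2. The 250 bases before the annotated start are shown for a pair of receptors that rose, Il2rg and Tgfbr2, and a pair that fell, Flt3 and Il21r, so that their upstream sequences can be set beside their levels. They come from RefSeq on GRCm38.p6, 5' to 3' on the strand of the gene, with capitals for a match to a searched motif. The windows are chrX:101268256-101268505 on the minus strand, chr9:116175364-116175613 on the minus strand, chr5:147400490-147400739 on the minus strand and chr7:125603179-125603428 on the plus strand.
Il2rg: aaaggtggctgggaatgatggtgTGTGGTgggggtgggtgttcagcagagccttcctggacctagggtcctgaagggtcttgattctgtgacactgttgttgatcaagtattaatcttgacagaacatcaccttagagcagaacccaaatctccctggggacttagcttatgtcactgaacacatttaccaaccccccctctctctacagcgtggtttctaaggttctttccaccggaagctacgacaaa
Tgfbr2: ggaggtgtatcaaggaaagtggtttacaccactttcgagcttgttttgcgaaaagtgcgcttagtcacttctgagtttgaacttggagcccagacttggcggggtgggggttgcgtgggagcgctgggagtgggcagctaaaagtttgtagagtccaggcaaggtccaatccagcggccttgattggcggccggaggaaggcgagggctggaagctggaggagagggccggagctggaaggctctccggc
Flt3: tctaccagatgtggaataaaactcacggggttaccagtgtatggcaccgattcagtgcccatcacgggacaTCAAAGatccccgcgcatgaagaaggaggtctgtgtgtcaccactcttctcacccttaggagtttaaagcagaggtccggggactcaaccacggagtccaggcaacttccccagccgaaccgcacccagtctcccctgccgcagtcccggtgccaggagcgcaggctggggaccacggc
Il21r: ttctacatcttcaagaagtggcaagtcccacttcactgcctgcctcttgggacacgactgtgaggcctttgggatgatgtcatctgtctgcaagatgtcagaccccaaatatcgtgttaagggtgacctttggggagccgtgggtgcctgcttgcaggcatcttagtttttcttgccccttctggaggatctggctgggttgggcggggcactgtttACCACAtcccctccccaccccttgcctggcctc
The motifs, searched on both strands, were CTTTGA for TCF-1 and LEF-1, AGATAA for GATA factors, TGTGGT for RUNX factors and AGAGGAAG for PU.1 and related ETS factors. Flt3 held 1 match to CTTTGA and Il2rg and Il21r each 1 to TGTGGT. Windows were matched for 239 of the 328 higher and 419 of the 546 lower genes, some with more than 1 window. CTTTGA was in 13.7% of the 335 windows of higher genes, 9.57% of the 554 windows of lower genes, 10.6% of those of tested genes and 13.8% of all windows. TGTGGT was in 11.3%, 12.3%, 11.3% and 14% in that order. AGATAA was in 7.76%, 5.78%, 6.21% and 9.99%, and AGAGGAAG in 4.48%, 4.15%, 4.01% and 3.67%. These shares describe letters in the windows, and no binding was measured.

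Il2rg, the common gamma chain of several interleukin receptors (chromosome X, 101264378 to 101268255), was 6.77, 7.34 and 7.40 in EILP and 9.79 and 9.44 in ILCP. It rose 5.41-fold (log2 difference 2.44, SE 0.26, adjusted p = 0.000158). Tgfbr2, the ligand-binding receptor for TGF-beta, was 5.22, 4.56 and 5.51 against 8.79 and 8.69, a 12-fold rise. Both ILCP libraries of each gene lay above all EILP libraries. Il17rb, a subunit of the IL-25 receptor, was 4.52, 4.99 and 4.15 against 8.5 and 8.54, a 17.5-fold rise, again with no overlap. Ifngr1, the ligand-binding chain of the interferon-gamma receptor, rose 4.18-fold from 7.51, 8.12 and 8.16 to 9.98 and 10.09. Il23r, a chain of the IL-23 receptor used by ILC3s, was at the lowest value throughout in EILP and 4.91 and 5.08 in ILCP (adjusted p = 0.00756). These 5 calls held in each fit that left out 1 library. For Il17rb the log2 difference was 4.78 without ILCP library 1, against 4.13 with all 5. Il18r1, the IL-18 receptor, was 5.98, 3.34 and 4.65 in EILP and 8.13 and 7.96 in ILCP, an 11.7-fold rise that was lost without ILCP library 1 or ILCP library 2 (adjusted p up to 0.114). Il27ra (IL-27) and Il12rb1 (shared by IL-12 and IL-23) rose 5.28-fold and 15.8-fold, and Il17re (IL-17C) was 2.87, the lowest value and the lowest value in EILP and 6.54 and 4.81 in ILCP. Calls did not hold for Il27ra without ILCP library 1, ILCP library 2, EILP library 1 or EILP library 2 (adjusted p up to 0.162), for Il12rb1 without ILCP library 1, ILCP library 2, EILP library 1 or EILP library 3 (adjusted p up to 0.163) and for Il17re without ILCP library 1, ILCP library 2, EILP library 2 or EILP library 3 (adjusted p up to 0.149). For Il18r1 the log2 difference was 2.73 without EILP library 2, against 3.54 with all 5. For Il12rb1 the log2 difference was 5.0 without EILP library 2 and 2.36 without EILP library 3, against 3.98 with all 5. Whether single ILCP cells held several of these receptors was not tested.

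Among the receptors that fell, Il10ra, an IL-10 receptor chain, was 7.17, 7.0 and 6.15 in EILP and 4.36 and 3.51 in ILCP, a 6.64-fold fall (adjusted p = 0.000434). Il1rap, the shared partner chain of the IL-1 and IL-33 receptors, was 5.32, 5.36 and 4.22 in EILP and the lowest value throughout in ILCP (adjusted p = 1.64e-05). Il21r, the IL-21 receptor, was 4.64, 4.65 and 1.75 in EILP and the lowest value throughout in ILCP (adjusted p = 0.000224). ILCP thus lay below every EILP library for all 3, and it listed Il1rap at the lowest value while Il1rl1, which signals with that chain, was at 8.06 and 7.93. Il6ra, the IL-6 receptor, was 5.77, 5.22 and 4.06 in EILP and the lowest value and 2.32 in ILCP, and Il1r2, a decoy receptor for IL-1, 5.01, 6.49 and 6.12 in EILP and the lowest value and 2.94 in ILCP. No call was left for Il6ra without ILCP library 1, EILP library 1 or EILP library 2 (adjusted p up to 0.108) and for Il1r2 without ILCP library 1, EILP library 1, EILP library 2 or EILP library 3 (adjusted p up to 0.303). Il2rb, a chain of the IL-2 and IL-15 receptors, was 6.83, 8.57 and 9.05 in EILP and 8.44 and 8.21 in ILCP, with ILCP inside the EILP range (adjusted p = 0.927).

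Of 10 cytokine receptors of progenitor and myeloid cells, 0 were higher and 2 lower (4 without ILCP library 1 and 3 without ILCP library 2). Flt3, the receptor of multipotent and lymphoid progenitors, was 8.75, 8.10 and 6.46 in EILP and 3.98 and -0.14 in ILCP, a 48.7-fold fall (log2 difference -5.61, SE 0.71, adjusted p = 0.000652). Csf3r, the G-CSF receptor, was 6.67, 4.35 and 5.38 in EILP and the lowest value throughout in ILCP (adjusted p = 7.28e-06). The groups did not overlap for either gene, and both calls held in each fit that left out 1 library. For Flt3 the log2 difference was -7.29 without ILCP library 1 and -4.09 without ILCP library 2, against -5.61 with all 5. Csf1r, the M-CSF receptor, was 7.24, 6.20 and 5.51 in EILP and the lowest value and 4.77 in ILCP (adjusted p = 0.135), and it passed without ILCP library 2 (adjusted p = 0.0439). Of 11 inhibitors and targets of cytokine signalling, Ptpn6, the phosphatase SHP-1, fell 3.24-fold from 9.21, 9.61 and 9.53 to 7.88 and 7.54 (adjusted p = 0.000798). Of this list 0 were higher by limma (1 without EILP library 2). Socs1, an inhibitor of JAK kinases, was 3.0, 4.12 and 4.64 against 6.41 and 6.90 and did not pass (adjusted p = 0.0617). Without the ALP_WT and EILP_KO libraries in the fit, a setting chosen after seeing the data, Socs1 passed (adjusted p = 0.0319).

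**Figure D2:**
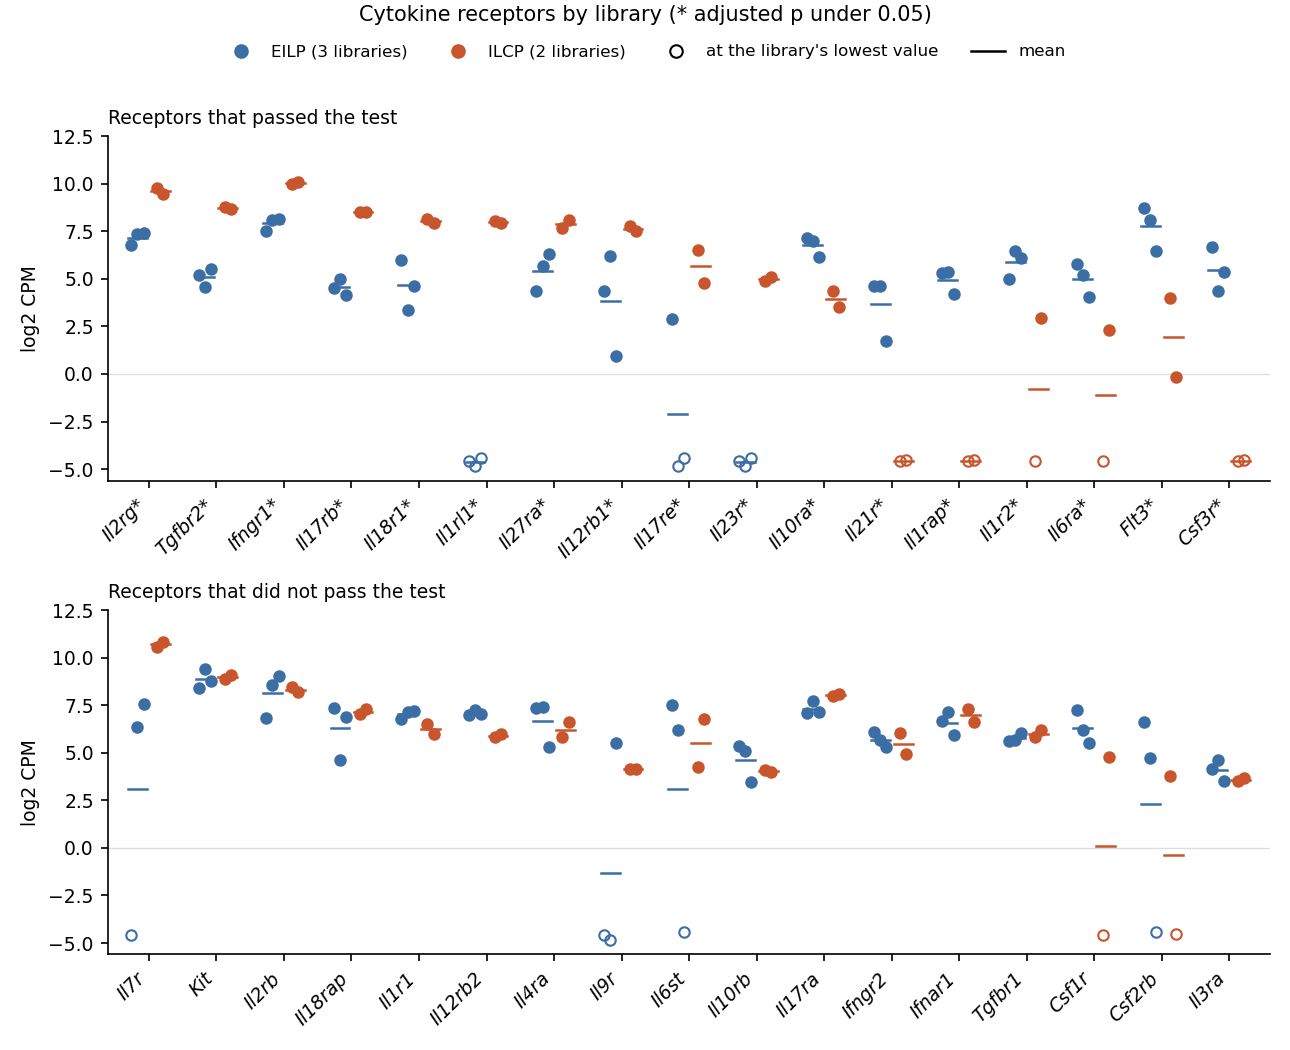
Log2 CPM of cytokine receptors (y axis) in each EILP (blue) and ILCP (orange) library, with group means as bars and open circles for a library's lowest value. The upper panel holds the receptors that passed, with Il2rg, Tgfbr2, Ifngr1 and Il17rb higher and Il10ra, Flt3 and Csf3r lower in both ILCP libraries than in any EILP library, and the lower panel those that did not, among them Kit and Il2rb with overlapping groups.

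Of 26 effector and surface genes of ILCs asked for, some were not in the deposited table. These were Il13, Il5, Il4, Areg, Il17a, Il22, Ifng, Csf2, Klrg1 and Cd40lg. Those that were tested were higher or did not pass. Of 16, 6 were higher, 0 lower and 10 did not pass, and 3 were higher without ILCP library 1. Ltb, lymphotoxin beta, which lymphoid tissue inducer cells use to build lymphoid organs (chromosome 17, 35194439 to 35196320), was 4.26, 3.85 and 5.65 in EILP and 9.52 and 9.40 in ILCP. It rose 29.3-fold (log2 difference 4.87, SE 0.61, adjusted p = 0.000602), with no overlap and in each fit that left out 1 library. For Ltb the log2 difference was 5.65 without EILP library 3, against 4.87 with all 5. Lta, lymphotoxin alpha, was at the lowest value throughout in EILP and 5.57 and 6.05 in ILCP (adjusted p = 0.0021). Tnf was at 4.56 and 4.38 in ILCP, Tnfsf11, which encodes RANKL, at 4.83 and 4.95, and Tnfsf4, the OX40 ligand, at 2.81 and 3.44, and EILP listed all 3 at the lowest value throughout. With Icos, these were the 6 genes that passed, 5 of them ligands of the TNF family. The call was lost for Tnf without ILCP library 1 or EILP library 3 (adjusted p up to 0.1), for Tnfsf4 without ILCP library 1, ILCP library 2 or EILP library 3 (adjusted p up to 0.104) and for Tnfsf11 without any 1 of the 5 libraries (adjusted p up to 0.18). Arg1, arginase 1, a gene of ILC2s and their progenitors, was at the lowest value, -0.01 and 5.23 in EILP and 8.30 and 9.68 in ILCP (adjusted p = 0.0743) and passed without EILP library 3 (adjusted p = 0.00896). Of 14 TNF receptor genes, 1 passed (2 without EILP library 2 or EILP library 3), Tnfrsf25, at 6.96 and 5.64 in ILCP.

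Homing genes also moved both ways. Of 29, 5 were higher and 4 lower, and 3 were higher without either 1 of the ILCP libraries and 10 with values below 0 raised to 0. Besides Ccr6 and Ccr9, Ccr7, the lymph node homing receptor, was 5.37, 4.17 and 2.91 in EILP and 6.81 and 7.13 in ILCP, a 7.72-fold rise (adjusted p = 0.00795). Itgal, the alpha chain of LFA-1, rose 2.94-fold, and Ccr10 was at the lowest value throughout in EILP and 4.70 and 4.36 in ILCP. Calls did not hold for Ccr7 without ILCP library 2 (adjusted p = 0.077), for Ccr10 without ILCP library 1 (adjusted p = 0.057) and for Ccr6 as given above. For Ccr7 the log2 difference was 3.65 without ILCP library 1 and 2.32 without ILCP library 2, against 2.95 with all 5. Cx3cr1, the fractalkine receptor, was 5.20, 4.92 and 2.10 in EILP and the lowest value throughout in ILCP (adjusted p = 0.000478). Itgam, the alpha chain of Mac-1, was 6.23, 5.54 and 6.72 in EILP and the lowest value and 4.27 in ILCP and lost its call without EILP library 1 (adjusted p = 0.0597). Cxcr6, a chemokine receptor of ILC precursors, was at the lowest value, the lowest value and 5.01 in EILP and 10.34 and 9.86 in ILCP and did not pass (adjusted p = 0.0553), but did without EILP library 3 (adjusted p = 0.011). Ccr2 was 7.08, 8.35 and 8.06 in EILP and 10.12 and 10.29 in ILCP (adjusted p = 0.1).

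Of 18 transcription factors of ILC commitment, 0 were higher by limma and 3 lower (0 without ILCP library 1). Gata3, which ILCs need from an early stage, was 6.30, 7.88 and 8.05 in EILP and 9.48 and 10.14 in ILCP (log2 difference 2.18, SE 0.77, adjusted p = 0.115). Rora, needed for ILC2s, was 5.85, 7.59 and 7.68 against 10.01 and 10.60 (log2 difference 3.03, SE 2.11, adjusted p = 0.434). Bcl11b was 0.20, 3.44 and 3.78 against 7.42 and 8.35 (adjusted p = 0.0579). Both ILCP libraries lay above every EILP library for each of the 3, as they did for Ets1, Maf, Ikzf3 and Id2, the inhibitor of E proteins that ILCs need, none of which passed (adjusted p = 0.125, 0.174, 0.151 and 0.0679). The SE came from the spread within groups over all 15 libraries. Mean Rora was 1.30 (SD 2.73) in ALP_WT, 0.42 (SD 7.09) in EILP_KO, 4.56 (SD 0.06) in sEILP_WT and 7.85 (SD 0.53) in cEILP_WT. In EILP_KO 1 library was at the lowest value for Rora. In the fit without the ALP_WT and EILP_KO libraries, chosen after seeing the data, Gata3 (log2 difference 2.31, adjusted p = 0.0199) and Rora (3.22, adjusted p = 0.0144) passed. That fit gave fewer calls in all, 250 higher and 384 lower, and kept 565 of the 874. Of the 31 cytokine receptors of lymphoid cells, 7 were higher and 4 lower in it. With values below 0 raised to 0, 3 of the 18 factors were higher, Bcl11b (adjusted p = 0.0063), Maf (0.00496) and Ikzf3 (0.0218). Bcl11b also passed with no intensity trend in the variance (adjusted p = 0.0172).

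Tox, an early ILC factor, was 7.86, 8.14 and 8.66 in EILP and 8.23 and 8.64 in ILCP, and Zbtb16, which encodes PLZF, 6.30, 6.73 and 7.24 in EILP and 6.62 and 7.32 in ILCP. The groups overlapped for both (adjusted p = 0.794 and 0.921). Nfil3, which acts at the start of ILC development, was 9.44, 8.21 and 7.97 in EILP and 5.09 and 6.30 in ILCP, a 6.91-fold fall (adjusted p = 0.0135). Runx3 was 7.75, 8.05 and 7.84 against 6.43 and 6.86, a 2.35-fold fall, and Runx1 7.5, 7.60 and 6.95 against 6.37 and 6.14, a 2.04-fold fall. No call was left for Nfil3 without ILCP library 1 (adjusted p = 0.157), for Runx3 without ILCP library 1 (adjusted p = 0.0708) and for Runx1 without ILCP library 1, ILCP library 2, EILP library 1 or EILP library 2 (adjusted p up to 0.147). For Nfil3 the log2 difference was -1.84 without ILCP library 1 and -3.64 without ILCP library 2, against -2.79 with all 5. Of 17 factors of mature ILC subsets, only Stat4, which acts downstream of IL-12, passed (0 without ILCP library 1 and 2 without EILP library 2). It was 3.55, 5.28 and 5.06 in EILP and 7.79 and 7.11 in ILCP, a 7.27-fold rise (adjusted p = 0.0102) lost without ILCP library 1 (adjusted p = 0.0806). Tbx21, the ILC1 factor T-bet, was at the lowest value, the lowest value and 5.62 in EILP and 4.93 and 4.93 in ILCP (adjusted p = 0.342). Eomes, a factor of natural killer (NK) cells, was 1.52, 3.45 and 6.48 in EILP and 4.78 and 4.92 in ILCP (adjusted p = 0.901). EILP library 3 was above both ILCP libraries for Tbx21 and Eomes.

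**Figure D3:**
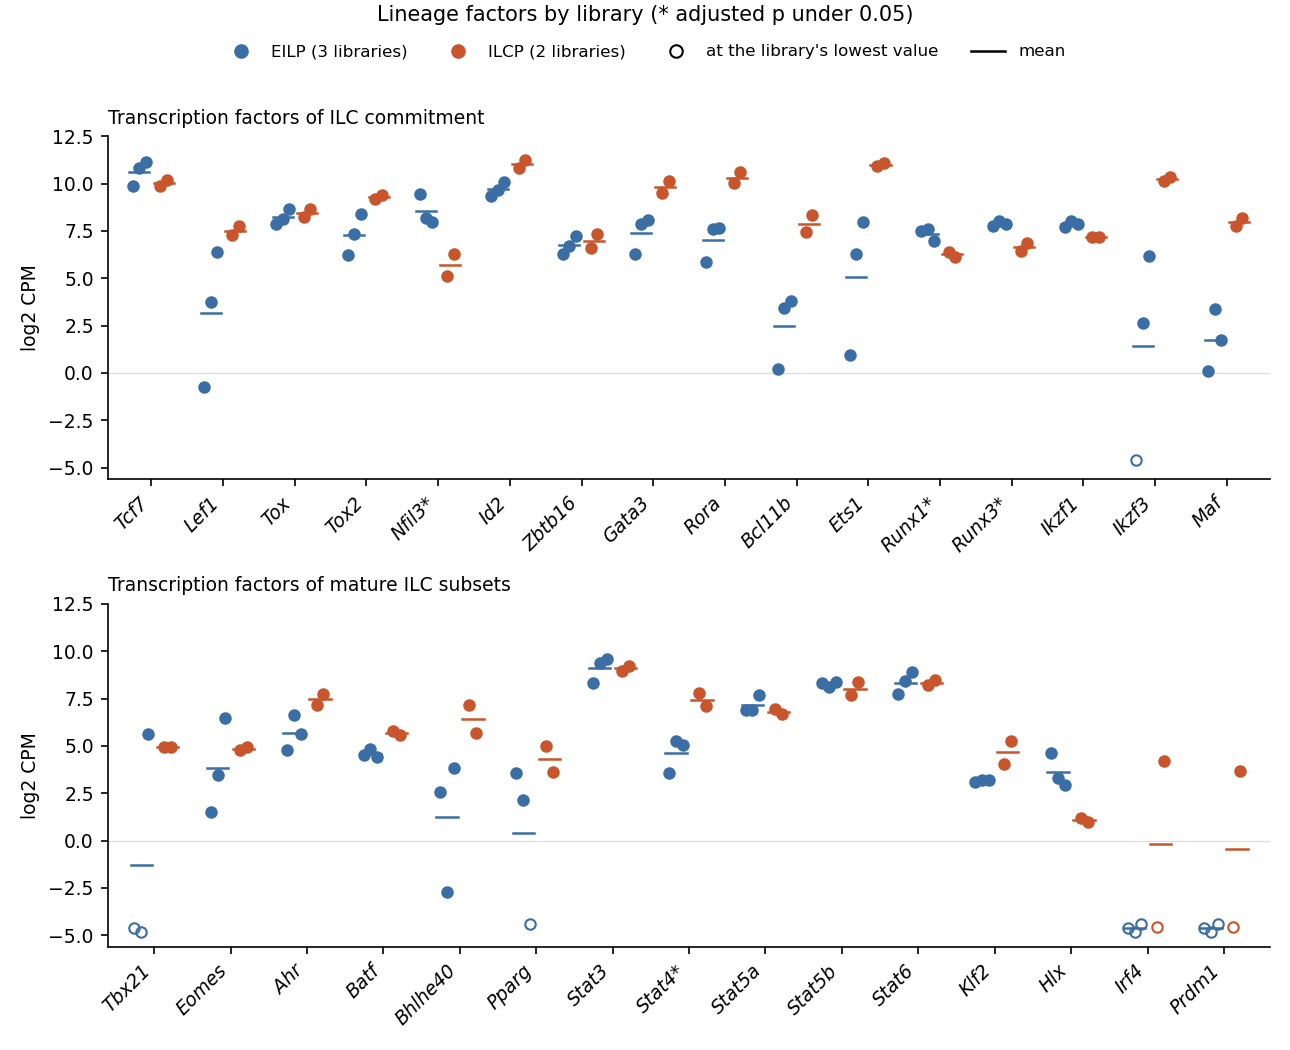
Log2 CPM of lineage factors (y axis) in each EILP (blue) and ILCP (orange) library, with group means as bars, open circles for a library's lowest value and a star for adjusted p under 0.05. Gata3, Rora, Bcl11b, Ets1, Ikzf3 and Maf are higher in both ILCP libraries but carry no star, Nfil3, Runx1 and Runx3 are lower with one, and Tox and Zbtb16 overlap.

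Markers of T and NK cells were uneven among the EILP libraries. Of 21 T lineage genes, 2 were higher (0 without ILCP library 1 or ILCP library 2 and 1 without EILP library 2) and 0 lower by limma (1 without ILCP library 2). The higher genes were Skap1 and the adhesion receptor Cd2, which was at the lowest value throughout in EILP and 2.28 and 3.57 in ILCP and lost its call without ILCP library 1 or ILCP library 2 (adjusted p up to 0.0806). Lck, a kinase of T cell receptor signalling, was 7.37, 8.35 and 8.09 in EILP and 8.52 and 7.51 in ILCP (adjusted p = 0.912), and the list summed to 409, 636 and 810 CPM in EILP and 1570 and 1710 CPM in ILCP. Of 29 segments and constant genes of the T cell receptor loci, 0 passed by limma (1 without EILP library 3) and 23 had a positive difference (47.6% of all tested genes did), while 4 were higher and 1 lower with values below 0 raised to 0. Tcrg-C1, a constant gene of the gamma locus, was 6.07, 7.10 and 8.26 in EILP and 9.72 and 9.36 in ILCP (adjusted p = 0.483) and Tcrg-C4 5.07, 4.89 and 6.89 against 9.15 and 9.43 (adjusted p = 0.198). Both were separated between the groups without passing, and the constant genes of this locus resemble one another, so reads can be split between them. That list summed to 249, 482 and 1280 CPM in EILP and 2540 and 2600 CPM in ILCP. Of 19 NK and cytotoxic genes, 0 passed by limma, and 2, Ncr1 and Klrb1b, with values below 0 raised to 0. Ncr1, which encodes NKp46, was at the lowest value, the lowest value and 4.44 in EILP and 6.29 and 7.03 in ILCP (adjusted p = 0.0761) and passed without EILP library 3 (adjusted p = 0.00527), as did Klrb1b (0.0117). The count of lower genes in this list was 1 without EILP library 1, against 0 with all 5. The NK list summed to 433, 653 and 1280 CPM in EILP and 1210 and 1260 CPM in ILCP, so EILP library 3 was at the level of ILCP. Whether such cells contribute to these values was not tested.

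Genes of stem and multipotent progenitors were lower or did not pass. Of 24, 0 were higher and 9 lower, and the 21 with neither group wholly at the lowest value had a median log2 difference of -1.51. Cd34, a sialomucin of progenitors (chromosome 1, 194938819 to 194961279), was 9.85, 9.03 and 8.45 in EILP and 5.22 and 3.68 in ILCP, a 23.2-fold fall (adjusted p = 9.03e-06). Myb, a factor of progenitor growth, was 8.83, 8.37 and 7.97 against 6.20 and 6.20, a 4.49-fold fall (adjusted p = 7.29e-05). Sox4, a factor of lymphoid progenitors, was 8.58, 8.09 and 8.13 against 6.85 and 6.57, a 2.85-fold fall. No ILCP library reached the lowest EILP library for these 3. The transcription factors Mef2c, Bcl11a, Hhex and Hoxa9 fell 6.16-fold, 6.49-fold, 4.67-fold and 13-fold, and Gfi1b was 4.66, 5.35 and 4.90 in EILP and the lowest value and -0.14 in ILCP. For Mef2c the log2 difference was -1.49 without ILCP library 1 and -3.64 without ILCP library 2, against -2.62 with all 5. For Hoxa9 the log2 difference was -3.09 without EILP library 3, against -3.70 with all 5. Mycn fell 3.01-fold and was the only 1 of the 9 to lose its call in a fit that left out 1 library, without ILCP library 2 (adjusted p = 0.0619). The list summed to 2780, 2060 and 1950 CPM in EILP and 604 and 599 CPM in ILCP.

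Of the single genes with the largest falls, Cercam (chromosome 2, 29869164 to 29882840) was 5.96, 6.41 and 6.55 in EILP and the lowest value throughout in ILCP (adjusted p = 7.77e-07). Itga2b, an integrin chain of megakaryocytes and early progenitors, was 6.37, 5.49 and 6.05 in EILP and the lowest value throughout in ILCP (adjusted p = 0.00296), and Rab44, a Rab GTPase, 8.12, 8.17 and 7.96 in EILP and the lowest value and -0.14 in ILCP (adjusted p = 3.21e-05). Aqp1 (a water channel), Nod1 (a sensor of bacterial cell wall), Rnd3, Sh2d5, Gpr146, Drc7, Zfp184 and Sirpa were also at the lowest value in both ILCP libraries. Rnd3 lost its call without ILCP library 1, ILCP library 2 or EILP library 2 (adjusted p up to 0.0867). Of the genes above 0 in all 5 libraries, Plac8 (chromosome 5, 100553725 to 100572245) had the smallest p. It was 10.66, 10.34 and 9.96 in EILP and 6.18 and 5.86 in ILCP, a 19-fold fall (log2 difference -4.25, SE 0.22, adjusted p = 7.41e-07). H2afy, which encodes the histone variant macroH2A1 (chromosome 13, 56073619 to 56136361), was 11.23, 11.06 and 10.89 against 9.27 and 9.15, a 3.53-fold fall (adjusted p = 4.56e-06), and the only 1 of 10 histone variants to pass (2 without ILCP library 1). Cd24a, a surface glycoprotein of immature blood cells, was 8.53, 8.0 and 7.65 against 3.81 and 4.46, a 15-fold fall. Both ILCP libraries lay below every EILP library for these 3. Marcksl1 fell 4.5-fold, Napsa, an aspartic protease, 5.10-fold, and BC035044 12.9-fold. Of mitochondrial genes, Slc25a12, an aspartate-glutamate carrier, fell 8.21-fold and Idh2, an isocitrate dehydrogenase, 3.28-fold. Mean Plac8 was 10.49 in ALP_WT, 10.64 in sEILP_WT, 10.03 in cEILP_WT and 10.80 in EILP_KO, all above ILCP.

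Myeloid genes were lower or did not pass. Of 28, 0 were higher and 10 lower, and 7 were lower without ILCP library 2 or without EILP library 3. Spi1, which encodes PU.1, a factor of myeloid and early B cell fate, was 8.06, 7.69 and 6.74 in EILP and 4.43 and -0.14 in ILCP, a 35.1-fold fall (log2 difference -5.13, SE 0.77, adjusted p = 0.00188). Ncf1, a subunit of the phagocyte NADPH oxidase, was 8.37, 8.33 and 7.90 against 4.58 and 3.09, a 19.2-fold fall. Ly86, a partner of a Toll-like receptor homologue, was 7.62, 7.23 and 6.34 against 3.03 and 2.72, a 17-fold fall. The groups did not overlap for these 3 genes. For Spi1 the log2 difference was -7.20 without ILCP library 1 and -3.29 without ILCP library 2, against -5.13 with all 5. Tyrobp, the adaptor DAP12, fell 3.83-fold, Ncf4, another oxidase subunit, 2.11-fold, Prtn3, a granule protease, 7.77-fold, and Cebpa, a granulocyte factor, 6.75-fold. The call was lost for Cebpa without any 1 of the 5 libraries (adjusted p up to 0.192), for Ncf4 without ILCP library 2, EILP library 1 or EILP library 3 (adjusted p up to 0.211) and for Prtn3 without ILCP library 2 (adjusted p = 0.0881). Mpo, myeloperoxidase, was 11.70, 9.55 and 8.36 in EILP and 9.16 and 5.46 in ILCP, with overlapping groups (adjusted p = 0.13), and passed without ILCP library 1 (adjusted p = 0.0421). The list summed to 6490, 3850 and 2770 CPM in EILP and 2900 and 2100 CPM in ILCP, which also overlap. What myeloid cells within the gates add to these values was not tested.

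Other lineages gave few calls. Of 22 dendritic cell genes, Irf8, a factor of dendritic cells and monocytes, was 10.73, 10.23 and 9.40 in EILP and 7.21 and 5.37 in ILCP, a 12.6-fold fall (adjusted p = 7.69e-05). H2-DMa, which helps to load MHC class II, fell 3.5-fold, and Xcr1, a chemokine receptor of cross-presenting dendritic cells, was at the lowest value throughout in EILP and 3.24 and 6.03 in ILCP. Siglech, Clec9a and Cd300c were at the lowest value in all 5 libraries, and the list summed to 2950, 3010 and 1720 CPM in EILP and 2680 and 1380 CPM in ILCP. Of 8 mast cell and basophil genes, 1 was lower (2 without ILCP library 1) and 1 higher. Cpa3, a mast cell protease, was 9.07, 9.55 and 9.25 against 6.73 and 6.49, a 6.32-fold fall (adjusted p = 0.00267), and Mitf was at the lowest value throughout against 1.80 and 2.25, a call lost without any 1 of the 5 libraries (adjusted p up to 0.136). Both ILCP libraries were below EILP for Irf8 and Cpa3. Prss34, a basophil protease, was at the lowest value, 7.30 and the lowest value in EILP and 8.83 and the lowest value in ILCP, and the mast cell and basophil list summed to 581, 981 and 635 CPM in EILP and 795 and 94.9 CPM in ILCP. Of 13 B lineage genes, Foxo1, which other lymphocytes use as well, was 3.49, 0.96 and 3.08 in EILP and 6.89 and 6.48 in ILCP, an 18.2-fold rise (adjusted p = 0.00706) lost without ILCP library 1 (adjusted p = 0.0576). For Foxo1 the log2 difference was 3.40 without EILP library 2, against 4.19 with all 5. No B lineage gene was lower by limma (2 without ILCP library 2). Rag1, Mzb1 and Fcrla were at the lowest value in all 5 libraries, and the list summed to 847, 1010 and 857 CPM in EILP and 581 and 749 CPM in ILCP. Itga2b was the only 1 of 16 erythroid and megakaryocyte genes to pass (2 without ILCP library 1).

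**Figure D4:**
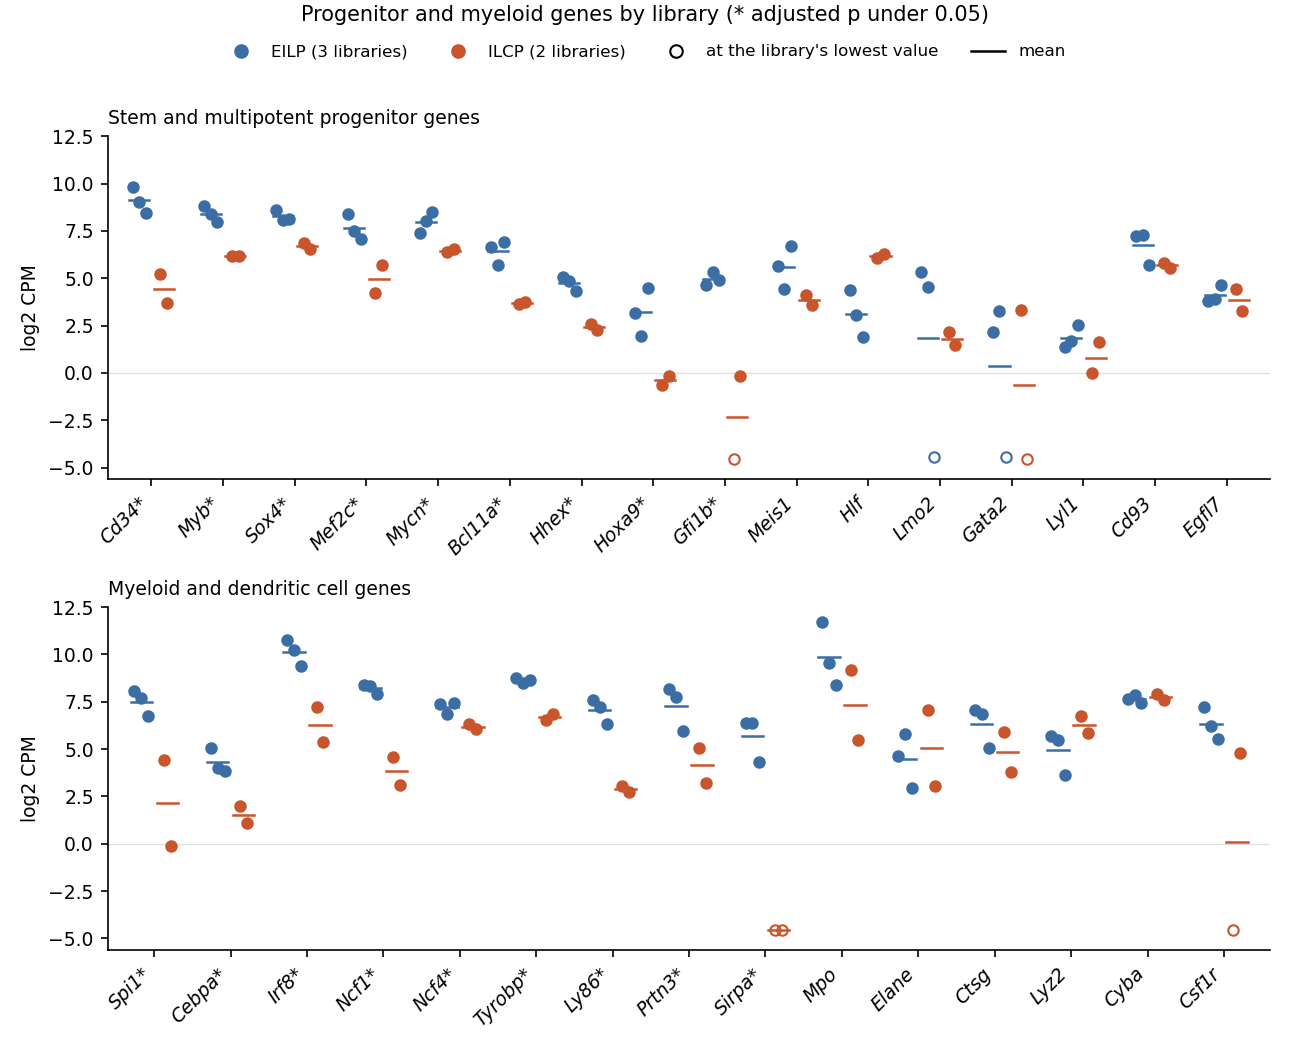
Log2 CPM of progenitor genes (upper panel) and myeloid and dendritic cell genes (lower panel) in each EILP (blue) and ILCP (orange) library, with group means as bars, open circles for a library's lowest value and a star for adjusted p under 0.05. Cd34, Myb, Sox4, Spi1, Irf8 and Ncf1 are lower in both ILCP libraries than in any EILP library, while Mpo, Elane and Cyba overlap.

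Genes of antigen receptor signalling changed in both directions. Of 27, 5 were higher (3 without ILCP library 1, 0 without ILCP library 2 and 2 without EILP library 1 or EILP library 3) and 5 lower. Lcp2, the adaptor SLP-76, was 6.15, 6.44 and 6.25 in EILP and 7.74 and 8.89 in ILCP, a 3.90-fold rise (adjusted p = 0.015). Fyn, a Src-family kinase of T cells, was 6.32, 5.69 and 6.65 against 7.64 and 8.16, a 3.21-fold rise (adjusted p = 0.0258). Ptpn22, a phosphatase of T cells, rose 2.99-fold, and the calcium-dependent factors Nfatc1 and Nfatc3 1.85-fold and 1.98-fold. Calls did not hold for Lcp2 without ILCP library 2 or EILP library 3 (adjusted p up to 0.116), for Fyn without ILCP library 2, EILP library 1 or EILP library 2 (adjusted p up to 0.157), for Ptpn22 without ILCP library 1, ILCP library 2, EILP library 1 or EILP library 3 (adjusted p up to 0.206), for Nfatc1 without ILCP library 2, EILP library 1 or EILP library 3 (adjusted p up to 0.175) and for Nfatc3 without ILCP library 1, ILCP library 2 or EILP library 3 (adjusted p up to 0.0925). Lat2, an adaptor of B and myeloid cells, was 8.62, 8.59 and 8.68 in EILP and 6.56 and 5.11 in ILCP, a 6.58-fold fall (adjusted p = 0.00013). Syk, a tyrosine kinase of B and myeloid cells, was 7.46, 7.42 and 7.89 against 1.06 and 5.35, a 22.8-fold fall (adjusted p = 0.00394). The groups did not overlap for Lcp2, Fyn, Lat2 or Syk. For Syk the log2 difference was -2.28 without ILCP library 1 and -6.51 without ILCP library 2, against -4.51 with all 5. For Lat2 the log2 difference was -3.34 without ILCP library 1, against -2.72 with all 5. The kinases Btk and Tec fell 6.20-fold and 2.81-fold, and Plcg2, a phospholipase downstream of them, 2.58-fold. Of the falls, only that of Tec was lost in a fit that left out 1 library, without ILCP library 2, EILP library 1 or EILP library 3 (adjusted p up to 0.202). For Tec the log2 difference was -2.09 without ILCP library 1, against -1.49 with all 5.

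Cell cycle genes gave few calls outside the regulators of entry. Of 30 genes of replication and mitosis, 0 were higher and 1 lower, Mcm7, a subunit of the replicative helicase, which fell 1.99-fold, a call lost without ILCP library 2 (adjusted p = 0.0725). The lower count was 2 without ILCP library 1, 0 without ILCP library 2 and 3 without EILP library 3. Mki67, a proliferation marker, was 5.93, 6.71 and 5.71 in EILP and 8.10 and 7.42 in ILCP (adjusted p = 0.08). Of 12 D cyclins, their kinases and inhibitors, Cdkn1a, which encodes the inhibitor p21, was 6.68, 6.84 and 7.21 in EILP and 3.54 and 3.83 in ILCP, a 9.54-fold fall (adjusted p = 5.87e-05). For Cdkn1a both ILCP libraries were below every EILP library. Ccnd2, Cdk4 and Cdk6, the cyclin and kinases of G1 entry, fell 1.95-fold, 1.71-fold and 2.28-fold, and Rbl2, a pocket protein that restrains entry, rose 3.31-fold. Of the 12, 1 without ILCP library 1 or EILP library 1 was lower. With cyclic loess scaling, 1 of these 12 genes was lower, Cdkn1a. No call was left for Ccnd2 without ILCP library 1 or EILP library 1 (adjusted p up to 0.275), for Cdk4 without ILCP library 1, ILCP library 2, EILP library 1 or EILP library 3 (adjusted p up to 0.192), for Cdk6 without ILCP library 1, ILCP library 2, EILP library 1 or EILP library 2 (adjusted p up to 0.175) and for Rbl2 without ILCP library 1 (adjusted p = 0.115). Myc, a driver of growth, fell 2.46-fold from 7.89, 7.90 and 7.60 to 6.36 and 6.69 (adjusted p = 0.0105), a call lost without ILCP library 1 (adjusted p = 0.0766).

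Of 83 cytosolic ribosomal protein genes, 0 were higher and 9 lower, 4 had a positive difference (47.6% of all tested genes did), and the median was -0.52 on the log2 scale. Rpl4 was 10.21, 10.14 and 10.29 in EILP and 9.60 and 9.70 in ILCP, a 1.49-fold fall (adjusted p = 0.00582). The lower count was 18 without EILP library 2, 5 without ILCP library 1, EILP library 1 or EILP library 3, and 6 without ILCP library 2. With cyclic loess scaling it was 3, with a median of -0.34, and Rpl4 did not pass (adjusted p = 0.067). The list summed to 25900, 20600 and 26100 CPM in EILP and 16900 and 16800 CPM in ILCP. The deposited values are shares of a library's total, so amounts per cell are not known. Of 77 mitochondrial ribosomal proteins 5 were lower (3 without ILCP library 1, EILP library 1 or EILP library 3), of 79 oxidative phosphorylation genes 2 (1 without ILCP library 2, EILP library 1 or EILP library 2) and of 49 proteasome genes 1 (2 without ILCP library 1 or EILP library 2, 0 without EILP library 1 and 3 without EILP library 3), with 0 higher by limma. Over all 12572 tested genes 4.34% were lower. The oxidative phosphorylation and proteasome counts with all 5 libraries lay below that share. A further 3 families were chosen after their values were seen, so their counts support nothing. Of 30 nucleolar genes of ribosome assembly, 13 were lower and 0 had a positive difference, and 8 were lower without ILCP library 2 or EILP library 1. Gtpbp4, a GTPase of large subunit assembly, was 7.44, 7.08 and 7.5 in EILP and 5.28 and 6.44 in ILCP, a 2.97-fold fall. Of the 8 subunits of the chaperonin TRiC, 5 were lower (3 without ILCP library 2 and 3 with cyclic loess scaling), among them Cct6a with 9.27, 9.09 and 9.42 against 8.40 and 8.47 (adjusted p = 0.00138). Of 30 hnRNP and SR splicing proteins, 10 were lower (5 without EILP library 1, 6 without EILP library 3 and 3 with cyclic loess scaling), with Hnrnpa1 at 9.22, 9.15 and 8.96 against 7.71 and 7.38. Hnrnpll, a splicing factor of activated lymphocytes, rose 2.64-fold, a call lost without ILCP library 1 (adjusted p = 0.118).

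Glycolysis genes were higher or did not pass. Of 20, 5 were higher and 0 lower. The higher count was 2 without ILCP library 1 and 3 without EILP library 3, and the lower count 1 without ILCP library 1 or EILP library 3. Eno1, enolase, was 9.33, 9.51 and 9.80 in EILP and 10.62 and 10.62 in ILCP, a 2.09-fold rise (adjusted p = 0.000729). Pkm, pyruvate kinase, was 10.10, 9.74 and 9.95 against 11.10 and 10.77, a 2.03-fold rise (adjusted p = 0.00231). Both ILCP libraries lay above every EILP library for the pair, in each fit that left out 1 library. Hk1 (hexokinase), Aldoa (aldolase) and Ldha (lactate dehydrogenase) rose 2.27-fold, 1.62-fold and 1.39-fold. The call was lost for Hk1 without ILCP library 1, EILP library 1 or EILP library 3 (adjusted p up to 0.298), for Aldoa without ILCP library 1 or EILP library 2 (adjusted p up to 0.25) and for Ldha without ILCP library 1, ILCP library 2, EILP library 2 or EILP library 3 (adjusted p up to 0.266). Gapdh was 10.29, 10.13 and 10.37 in EILP and 10.46 and 10.18 in ILCP, with overlapping groups (adjusted p = 0.856).

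Other signalling pathways gave few calls. Of 22 NF-kappaB genes, 2 were higher (1 without ILCP library 1) and 1 lower (2 without ILCP library 2). Nfkb1, which encodes p105 and p50, was 9.53, 9.88 and 9.90 in EILP and 7.39 and 7.38 in ILCP, a 5.07-fold fall (adjusted p = 0.00013). Nfkbiz, a nuclear member of the IkappaB family, was at the lowest value throughout in EILP and 4.91 and 5.42 in ILCP (adjusted p = 0.00335). ILCP was thus below EILP for the first and above it for the second, with no overlap. Birc3, an inhibitor of apoptosis, rose 9.0-fold, a call lost without ILCP library 1 (adjusted p = 0.0731), and Nfkb2, of the non-canonical pathway, was 4.64, 2.94 and 4.5 against 6.51 and 6.79 (adjusted p = 0.0861). For Birc3 the log2 difference was 2.33 without ILCP library 1 and 3.92 without ILCP library 2, against 3.17 with all 5. Of 23 genes of the canonical Wnt pathway, 2 were higher (1 without ILCP library 1, ILCP library 2, EILP library 2 or EILP library 3) and 0 lower by limma (1 without ILCP library 1). Tcf7l1, a repressor of the TCF family, was at the lowest value throughout in EILP and 3.21 and 2.95 in ILCP (adjusted p = 0.00138), and Axin2, a feedback target, -1.46, the lowest value and the lowest value against 3.43 and 4.04, a call lost without ILCP library 1, ILCP library 2, EILP library 2 or EILP library 3 (adjusted p up to 0.165). Of 15 Notch pathway genes, Rbpj, the DNA-binding partner of Notch, fell 2.33-fold, Myc fell as given above, and Poglut1, which glycosylates Notch, rose 2.88-fold. Mean Poglut1 was 4.89 in EILP and 6.39 in ILCP, below the 6.65 of cEILP_WT and 6.92 of EILP_KO. It was 5.98 in sEILP_WT and 5.94 in ALP_WT. Calls did not hold for Rbpj without ILCP library 1 or EILP library 3 (adjusted p up to 0.229) and for Poglut1 without ILCP library 2 or EILP library 3 (adjusted p up to 0.128).

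Of 27 interferon response genes, 4 were higher and 1 lower. The higher count was 0 without ILCP library 1, 1 without ILCP library 2 or EILP library 1 and 2 without EILP library 2, and the lower count 2 without ILCP library 1 and 0 without EILP library 1, EILP library 2 or EILP library 3. Tgtp2 was 5.42, 6.05 and 5.42 in EILP and 7.82 and 7.63 in ILCP, a 4.29-fold rise (adjusted p = 0.00743), with both ILCP libraries above every EILP library. Tgtp1, a near-identical copy between which and Tgtp2 reads can be split, rose 5.30-fold, Irgm2 3.04-fold and Irgm1 2.45-fold, and Gbp3, a guanylate-binding protein, fell 11.8-fold. No call was left for Tgtp2 without ILCP library 1 (adjusted p = 0.0561), for Tgtp1 without ILCP library 1, ILCP library 2, EILP library 1 or EILP library 3 (adjusted p up to 0.128), for Irgm2 without ILCP library 1, ILCP library 2, EILP library 1 or EILP library 2 (adjusted p up to 0.249), for Irgm1 without any 1 of the 5 libraries (adjusted p up to 0.173) and for Gbp3 without ILCP library 2, EILP library 1, EILP library 2 or EILP library 3 (adjusted p up to 0.0863). For Gbp3 the log2 difference was -5.89 without ILCP library 1 and -1.49 without ILCP library 2, against -3.57 with all 5. In the Bcl2 family of 14 genes, Bid, which promotes apoptosis, was 7.60, 7.17 and 7.41 in EILP and 4.91 and 4.80 in ILCP, a 5.82-fold fall (adjusted p = 0.000512). Bcl2a1d, of a cluster of near-identical copies, was at the lowest value, -0.10 and the lowest value against 2.58 and 3.82 (adjusted p = 0.0262), a call lost without ILCP library 1, ILCP library 2, EILP library 1 or EILP library 3 (adjusted p up to 0.134), and Bcl2 9.65, 9.80 and 10.27 against 9.36 and 9.59 (adjusted p = 0.174). Bid was lower in both ILCP libraries than in any EILP library. Of 21 early response genes, 0 were lower by limma (2 without ILCP library 2 and 1 without EILP library 3) and 2 higher. Btg1, an antiproliferative gene, rose 3.65-fold, and Dusp6, a phosphatase of ERK, was at the lowest value, 3.40 and the lowest value against 5.42 and 5.81, a call lost without ILCP library 1, ILCP library 2, EILP library 1 or EILP library 3 (adjusted p up to 0.129). Mean Dusp6 was 7.1 in ALP_WT, above the 5.6 of ILCP. It was 5.2 in EILP_KO, 4.3 in cEILP_WT and 4.2 in sEILP_WT, and no library of these populations was at the lowest value. Of 29 chromatin regulators, 0 were higher by limma (1 without ILCP library 2) and 3 lower. Smarcc1, a subunit of the BAF complex, fell 2.60-fold, Hmga1 3.10-fold and Satb1, a chromatin organizer, 3.61-fold, the last lost without ILCP library 1 (adjusted p = 0.104). For Satb1 the log2 difference was -1.06 without ILCP library 1 and -2.56 without ILCP library 2, against -1.85 with all 5.

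**Figure D5:**
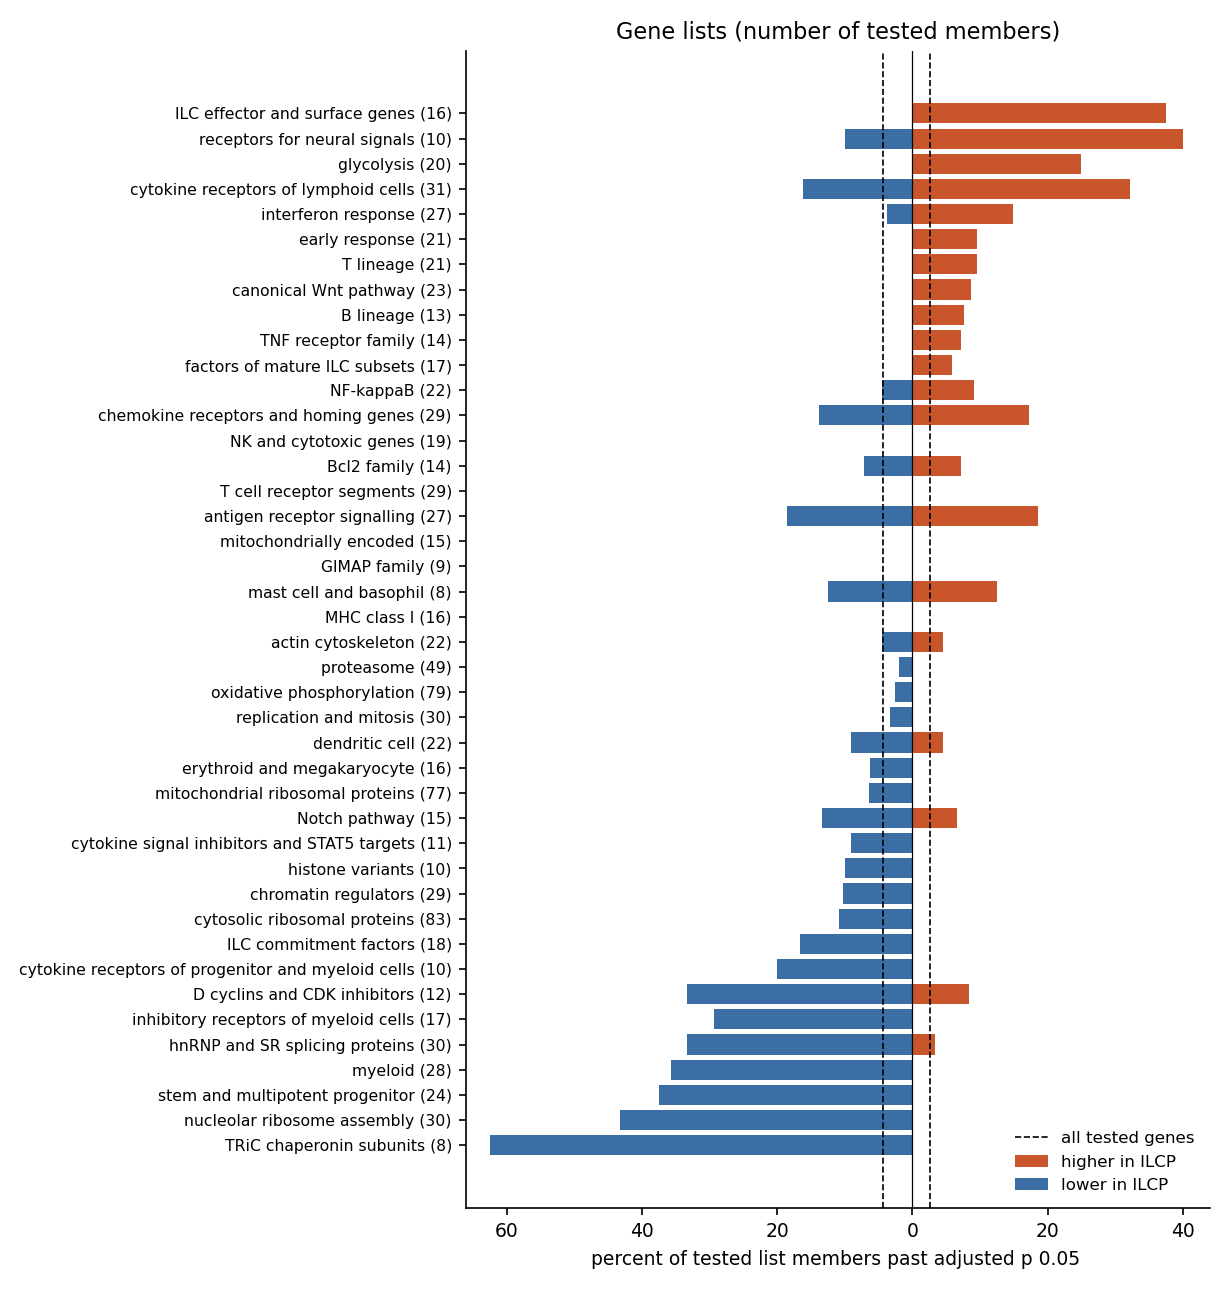
Percent of the tested members of each gene list that passed adjusted p 0.05, higher in ILCP (orange, to the right) or lower (blue, to the left), with the number of tested members in parentheses and dashed lines at the percentages of all tested genes (2.61% and 4.34%). The bars of receptors for neural signals, ILC effector genes and lymphoid cytokine receptors reach farthest to the right, and those of chaperonin, nucleolar and progenitor genes farthest to the left; the neural, chaperonin, nucleolar, splicing, GIMAP and inhibitory receptor lists were chosen after their values were seen.

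The 3 EILP libraries also differed in an order that touches the genes above, a pattern noted after the values were seen. For Il7r, Ikzf3, Zap70 and Arg1, EILP library 1 was at the lowest value and EILP library 3 the highest of the 3, at 7.58, 6.18, 4.03 and 5.23. For Mpo, Spi1 and Flt3, EILP library 1 was the highest and EILP library 3 the lowest. EILP library 3 is the only EILP library of batch 2, so batch, library and the cells it held cannot be told apart.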

How the data were processed

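The deposited table holds log2 CPM values for 12798 genes in 15 libraries, made by the authors from SMARTer libraries. Tools listed per the submitters' processing notes, without their roles, were limma, STAR 2.5.2b, RSEM 1.2.23 and bcl2fastq 2.17, and the build was mm10. The annotation and depth are not given in the sources used here. The columns share 1 distribution of values, as after quantile normalization, so a value follows a gene's rank within its library. A further 24 unnamed columns held no values. Genes at or above log2 0 in 2 libraries were kept (12572). limma 3.58.1 in R 4.3.3 fitted group and batch over all 15 libraries, with an intensity trend and Benjamini-Hochberg adjustment over all tested genes, and the script was tested on simulated data. Named genes were those of the gate, members of gene lists, and, among genes past an adjusted p of 0.05, a log2 difference of 1, a mean in the higher group above 4.75 and no overlap, those with the largest differences or the smallest p. The gene lists and named genes were chosen with earlier results of these data known, and some list members that count in the totals are not reported here. Correlations of deviations from the group mean between EILP and ILCP libraries lay between -0.031 and 0.031. The deviations of 2 ILCP libraries mirror each other, so these values cannot decide whether replicate numbers pair the libraries.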

Additional observations from a re-analysis of the deposited data

How the results depend on the processing

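None of the 874 called genes changed sign in the settings that were run. A fit of the 2 groups alone gave 0 higher and 0 lower genes by limma (1796 with an unadjusted p under 0.05), and the same fit without a batch term, chosen after seeing the data, 3 and 6. Batch 1 alone gave 198 higher genes and batch 2 alone 0 higher and 0 lower (2932 with an unadjusted p under 0.05). The batch 1 count holds no spread between ILCP libraries. The batch 2 counts rest on the spread of ALP_WT alone, so they cannot weigh a difference between EILP and ILCP. Library weights gave 110 higher and 244 lower genes and no intensity trend 337 lower ones. A fit of the 8715 genes never at the lowest value in the 5 libraries, also chosen after seeing the data, gave 215 higher. Of the 328 higher genes of the main fit, 204 were among those genes. Leaving out 1 library gave 163 to 326 higher and 383 to 602 lower genes. With the replicate number as a block, for which no pairing is known, 248 were higher and 423 lower. The other settings stayed within 1.5 times the 328 and 546 genes. With 2 ILCP libraries and no counts, a gene near the lowest value has little precision, and depth cannot be weighed.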

Other observations

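Receptors for neural signals, a list chosen after the values were seen and so without a test of its own, held 4 higher and 1 lower genes of 10 tested. The higher count was 2 without ILCP library 1, EILP library 1 or EILP library 2 and 1 without ILCP library 2. Nmur1, the neuromedin U receptor of ILC2s, was at the lowest value, the lowest value and 3.55 in EILP and 7.64 and 7.46 in ILCP (adjusted p = 0.0382). Vipr2, a receptor for vasoactive intestinal peptide, was at the lowest value throughout EILP and at 4.04 and 4.88 in ILCP (adjusted p = 0.00273). Ret, a receptor for neurotrophic factors, was at 5.20 and 5.31 in ILCP, with EILP at the lowest value throughout (adjusted p = 0.0113). Calcrl, a subunit of the receptor for the calcitonin gene-related peptide, was 7.76, 7.19 and 8.02 in EILP and 6.36 and 5.57 in ILCP, a 3.24-fold fall (adjusted p = 0.00453). ILCP and EILP did not overlap for these 4 genes. The call was lost for Nmur1 without ILCP library 1, ILCP library 2, EILP library 1 or EILP library 2 (adjusted p up to 0.22) and for Ret without ILCP library 2 (adjusted p = 0.0602).

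A further pair of families was chosen in the same way. Of 17 inhibitory and related receptors of myeloid cells, 5 were lower (3 without ILCP library 1). Sirpa, a receptor for CD47, was 6.39, 6.37 and 4.32 in EILP and the lowest value throughout in ILCP (adjusted p = 9.13e-06). Cd300a was 4.33, 3.29 and 3.56 in EILP and the lowest value throughout in ILCP (adjusted p = 0.000308), and Siglecf, a sialic acid receptor of eosinophils, 5.27, 5.08 and 3.98 in EILP and the lowest value throughout in ILCP (adjusted p = 0.0113). Both ILCP libraries listed these 3 genes, and Clec4d, at the lowest value. Siglecg was 4.38, 4.83 and 5.14 against the lowest value and 0.53 (adjusted p = 0.00431). The call was lost for Siglecf without ILCP library 1 (adjusted p = 0.0552) and for Clec4d without ILCP library 1 or ILCP library 2 (adjusted p up to 0.0534). All 9 tested genes of the GIMAP family, GTPases of lymphocyte survival, had a positive difference (47.6% of all tested genes did), with a median of 1.46 on the log2 scale, and 0 passed by limma (4 without EILP library 3). The family summed to 203, 525 and 1150 CPM in EILP and 1320 and 1530 CPM in ILCP, so the EILP libraries differed among themselves and EILP library 3 was the nearest to ILCP.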
